A study of Rattus norvegicus with 6 samples.

Results

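The AP-1 and Egr immediate early factors were the rows of the deposited expression table whose symbol was Fos, Fosb, Fosl1, Fosl2, Jun, Junb, Jund, Egr1, Egr2 or Atf3. All 10 were held among the 13728 genes of the table, and all 10 had at least 10 counts in every library. Bulk RNA-seq had been performed on 3 samples of rat endometrial epithelial organoids (rEEOs) and 3 samples of rat bone marrow mesenchymal stem cells (rBMSCs) to compare the gene expression of cells used to repair injured endometrium. rEEOs were grown by the authors from uterine glandular fragments of female Sprague–Dawley rats aged 5 weeks, at passages 3 to 5, in Matrigel droplets with a medium that held EGF, FGF10, noggin, the TGF-beta receptor inhibitor A83-01, the ROCK inhibitor Y27632, Wnt3a and R-Spondin-1. rBMSCs carried a red fluorescent protein, were bought from a supplier and were grown in plastic dishes in a medium with fetal bovine serum. No other treatment was given by the labels, and nothing states that the 3 samples of a cell type came from separate animals or thaws, so p-values measure only the spread between these samples. Cell type, donor, culture matrix and medium differ together between the groups and cannot be told apart.

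AP-1 is a dimer of basic leucine zipper proteins. Jun proteins pair with each other or with Fos proteins, whereas Fos proteins need a Jun or related partner to bind DNA, and Atf3 is a related protein that pairs with Jun proteins and often represses. Egr1 and Egr2 are zinc finger factors. Most of these genes are immediate early genes, whose transcription starts within minutes of a growth factor, serum or stress signal, through MAP kinases and serum response factor (SRF), and whose mRNAs decay quickly, while Jund and Fosl2 are known for steadier expression.

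The libraries held between 10457958 and 15421501 reads, given as counts. Levels are given as TPM, which is divided by transcript length and by the library total and allows genes to be compared, or as CPM, the counts divided by a library total scaled by TMM, which compares a gene between libraries. In the labelled cell types, all 10 epithelial markers tested were higher and 10 of 11 mesenchymal markers tested were lower in rEEOs. Foxa2, a listed epithelial marker, was not tested, with 254, 2 and 79 counts in rEEOs replicates 1, 2 and 3 and 0 in rBMSCs. The summed TPM of the epithelial markers was 5317 to 5944 in rEEOs and 2.93 to 3.57 in rBMSCs. Epcam, Krt19 and Cdh1 were at 0 counts in rBMSCs. Pdgfrb and Thy1 were at 0 counts in rEEOs, where the mesenchymal markers summed to 172 to 298 TPM, against 41349 to 43655 TPM in rBMSCs. Nearly all of the rEEOs sum was Vim, with 171.13, 297.49 and 227.45 TPM in replicates 1, 2 and 3. rEEOs replicate 1 stood apart from replicates 2 and 3: a tested gene had a median SD between libraries, as log2(CPM + 1), of 0.34 in rEEOs, 0.16 without replicate 1 and 0.09 in rBMSCs. In bulk samples, fewer cells of a type and less RNA per cell cannot be told apart.

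Of the 10 members, 7 were higher in rEEOs and none was lower (edgeR's quasi-likelihood test, adjusted p below 0.05), against 33.3% higher and 30.2% lower of the 10607 genes tested. None was lower at an unadjusted p below 0.05, with DESeq2 or with limma either. The 7 were Fos, Fosb, Fosl2, Jun, Junb, Jund and Atf3, and in each the 3 rEEOs libraries lay above the 3 rBMSCs libraries in TPM, as they did for 31.1% of all genes tested. With the study's further threshold, a log2 fold change above 2, 6 were called, against 16.3% of all genes tested, since Fosl2 lay just under it. The median log2 fold change was 2.93 over the members and 0.08 over all genes tested. The members not passing were Fosl1, Egr1 and Egr2. Below, a fold change is rEEOs over rBMSCs in CPM, SE is its standard error on the log2 scale, and adjusted p-values are those of this edgeR fit over all genes. An exact permutation test on 1 gene has 0.1 as its smallest p in this design.

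**Figure D1:**
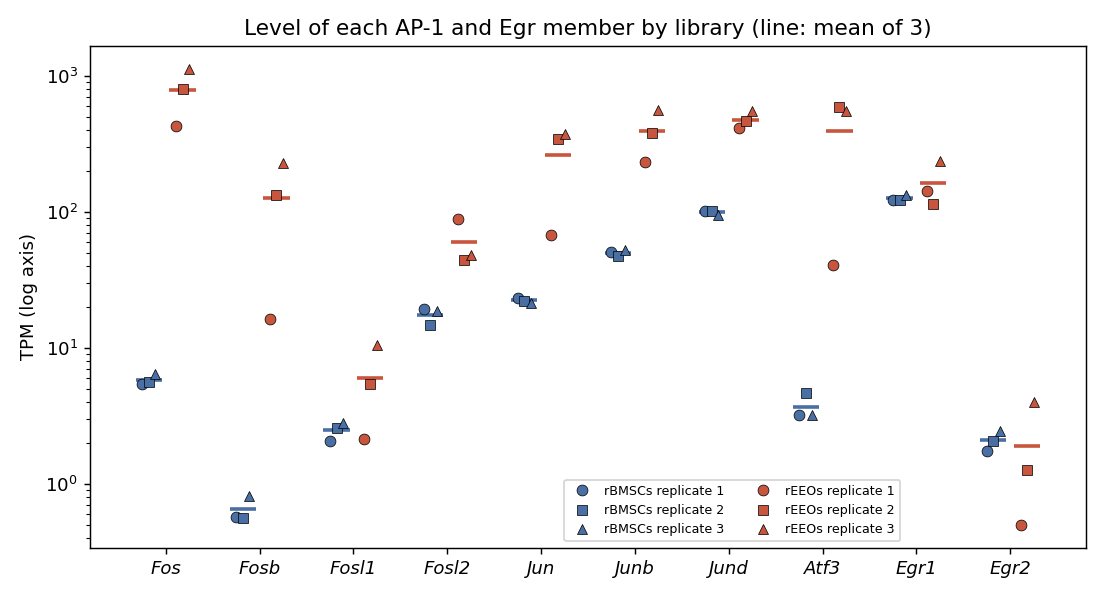
TPM on a log axis for the 10 members in each library, with rBMSCs in blue, rEEOs in red, a symbol for each replicate number and a line at the mean of 3 libraries. Fos rose from about 5.82 to 789 TPM on average, and the points of Fosl1, Egr1 and Egr2 overlap between the cell types.

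**Figure D2:**
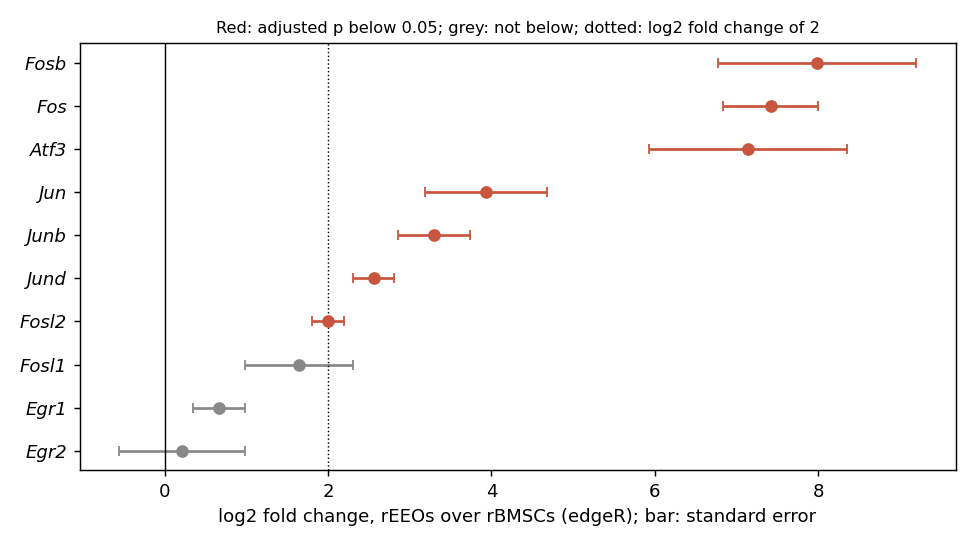
Log2 fold change of each member in rEEOs over rBMSCs from edgeR, with its standard error as a bar. The 7 red members had an adjusted p below 0.05, and Fosl2 sits on the dotted line at a log2 fold change of 2.

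Among the Fos proteins, Fos (gene ID 314322), the founding partner of Jun in AP-1, had 5.39, 5.61 and 6.45 TPM in rBMSCs replicates 1, 2 and 3 and 426.8, 805.75 and 1133.71 TPM in rEEOs. Even the lowest rEEOs library was far above the highest rBMSCs library. This was a 171-fold difference in CPM, or 7.42 on the log2 scale (SE 0.58, edgeR adjusted p = 9.52e-05). It lay between 6.75 and 7.82 over the 14 alternatives.

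Fosb (gene ID 100360880), a close relative that is induced with Fos, was the lowest of the 10 members in rBMSCs, with 0.57, 0.56 and 0.82 TPM, from 18 to 25 reads a library. In rEEOs it had 16.33, 134.08 and 228.4 TPM. All rEEOs libraries were above all rBMSCs libraries, but replicate 1 of rEEOs held far less than the other two. Its log2 fold change was 7.98 (SE 1.21, edgeR adjusted p = 0.00154), and it fell to 7.26 without rEEOs replicate 3 and reached 8.55 without replicate 1.

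Fosl2 (gene ID 25446), also known as Fra-2, had 19.22, 14.82 and 18.87 TPM in rBMSCs and 89.36, 44.11 and 48.6 TPM in rEEOs. It was the exception among the members that rose, since rEEOs replicate 1 was its highest rEEOs library and the spread between rEEOs libraries, an SD of 0.25 on log2(CPM + 1), was below the median of all genes. Its rise on the log2 scale was 1.999 (SE 0.20, edgeR adjusted p = 0.000245). It lay between 1.66 and 2.39 over the alternatives, on both sides of the threshold of 2, and the adjusted p was at most 0.00316.

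Fosl1 (gene ID 25445), also known as Fra-1, had 2.07, 2.58 and 2.8 TPM in rBMSCs and 2.14, 5.48 and 10.58 TPM in rEEOs. The groups overlapped, since rEEOs replicate 1 lay within the range of rBMSCs. Fosl1 had a log2 fold change of 1.64 (SE 0.66, edgeR adjusted p = 0.0658). Without rEEOs replicate 1 it was 2.13 with an adjusted p of 0.00115, and DESeq2 gave an adjusted p of 0.0299, so the call turns on that library and on the tool.

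Among the Jun proteins, Jun (gene ID 24516) had 23.43, 22.31 and 21.38 TPM in rBMSCs and 68.16, 346.92 and 377.28 TPM in rEEOs. Replicates 2 and 3 of rEEOs were close to each other and replicate 1 was well below both, although still above every rBMSCs library. Jun rose by 3.94 on the log2 scale (SE 0.75, edgeR adjusted p = 0.00415), with 4.45 without rEEOs replicate 1, 3.66 without replicate 2 and 3.59 without replicate 3. With limma on log2(TPM + 1) it was 3.16.

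Junb (gene ID 24517), a Jun protein that is a weaker activator than Jun at many sites, had 50.52, 47.74 and 52.5 TPM in rBMSCs and 234.41, 379.45 and 563.78 TPM in rEEOs. Its rBMSCs libraries were within 1.05-fold of each other in CPM, and its rEEOs libraries spread over 3.29-fold. Junb rose 9.82-fold, or 3.30 on the log2 scale (SE 0.44, edgeR adjusted p = 0.000872).

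Jund (gene ID 24518), the Jun protein known for steady expression, had 101.49, 101 and 95.64 TPM in rBMSCs and 413.5, 469.23 and 551.8 TPM in rEEOs. It varied least among the Jun genes within rEEOs, over 1.83-fold in CPM. Jund rose 5.9-fold, or 2.56 on the log2 scale (SE 0.25, edgeR adjusted p = 0.000245), the smallest rise of the 6 members above the fold threshold.

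Atf3 (gene ID 25389), a stress-induced partner of Jun, had 3.22, 4.64 and 3.24 TPM in rBMSCs and 40.58, 594.5 and 554.14 TPM in rEEOs. All rEEOs libraries were higher, and the mean of replicates 2 and 3 was 19.9 times replicate 1 in CPM, the widest such ratio of the 10 members. Atf3 rose 141-fold, or 7.14 on the log2 scale (SE 1.21, edgeR adjusted p = 0.00252). Its counts were fractional in all 6 libraries, and the fractional parts were completed to whole reads by a row named LOC100911428, which held 1.2% to 12.4% of the reads of both rows, so the split of reads between these rows is uncertain.

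Egr1 (gene ID 24330), the zinc finger factor that serum and growth factors induce, had 123.29, 121.92 and 132.46 TPM in rBMSCs and 141.84, 114.54 and 235.6 TPM in rEEOs. The groups overlapped in TPM but not in CPM, with 119, 124 and 129 CPM in rBMSCs and 133, 156 and 303 CPM in rEEOs. Its log2 fold change was 0.67 (SE 0.32, edgeR adjusted p = 0.105). Without rEEOs replicate 1 it was 0.91 with an adjusted p of 0.0188.

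Egr2 (gene ID 114090), a relative of Egr1, had 1.74, 2.08 and 2.45 TPM in rBMSCs and 0.5, 1.27 and 3.98 TPM in rEEOs. The rBMSCs libraries fell inside the range of the rEEOs libraries, of which replicates 1 and 2 were the lowest of all 6 and replicate 3 the highest. For Egr2 the fitted difference was 0.22 on the log2 scale (SE 0.77, edgeR adjusted p = 0.819), with -0.98 without rEEOs replicate 3 and -0.30 with the replicate number as a block.

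The leading member of each family differed between the cell types for the Fos proteins. Levels were compared between genes as TPM, which is per length, and each share is of the summed TPM of a family. In rBMSCs Fosl2 made up 66.2% ± 3.9 (SD, n = 3) of the Fos family TPM and Fos 22.0% ± 2.0 (SD, n = 3). In rEEOs Fos made up 80.3% ± 0.9 (SD, n = 3) and Fosl2 8.2% ± 7.4 (SD, n = 3). The share of Fos lay between 79.8% and 81.4% in the 3 rEEOs libraries although its TPM differed between them, while Fosb took 3.1% in the lowest library and 16.1% in the highest. Fosl2 led by reads as well in every rBMSCs library, with 135, 112 and 128 counts against 74, 82 and 85 of Fos, and the transcript length implied by its counts and TPM was 0.52 times that of Fos.

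Among the Jun genes, Jund led in rBMSCs with 57.7% ± 1.3 (SD, n = 3) of the family TPM, followed by Junb with 29.2% ± 1.6 (SD, n = 3) and Jun with 13.0% ± 0.4 (SD, n = 3). In rEEOs Jund had 44.6% ± 11.4 (SD, n = 3), Junb 34.1% ± 3.3 (SD, n = 3) and Jun 21.3% ± 10.4 (SD, n = 3). Jund led in rEEOs replicates 1 and 2, but in replicate 3 Junb, at 563.78 TPM, was just above Jund at 551.8, so no Jun gene led in all rEEOs libraries. By reads, which are not per length, Jun led in rEEOs replicates 2 and 3, with 12360 and 13421 counts against 8238 and 9660 of Jund and 7171 and 10626 of Junb. In replicate 1 Jund, at 57.7%, was within its range in rBMSCs of 56.4% to 59.0%, and Jun had 9.5%. Of the Egr pair, Egr1 held 98.4% ± 0.2 (SD, n = 3) in rBMSCs and 98.9% ± 0.7 (SD, n = 3) in rEEOs.

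**Figure D3:**
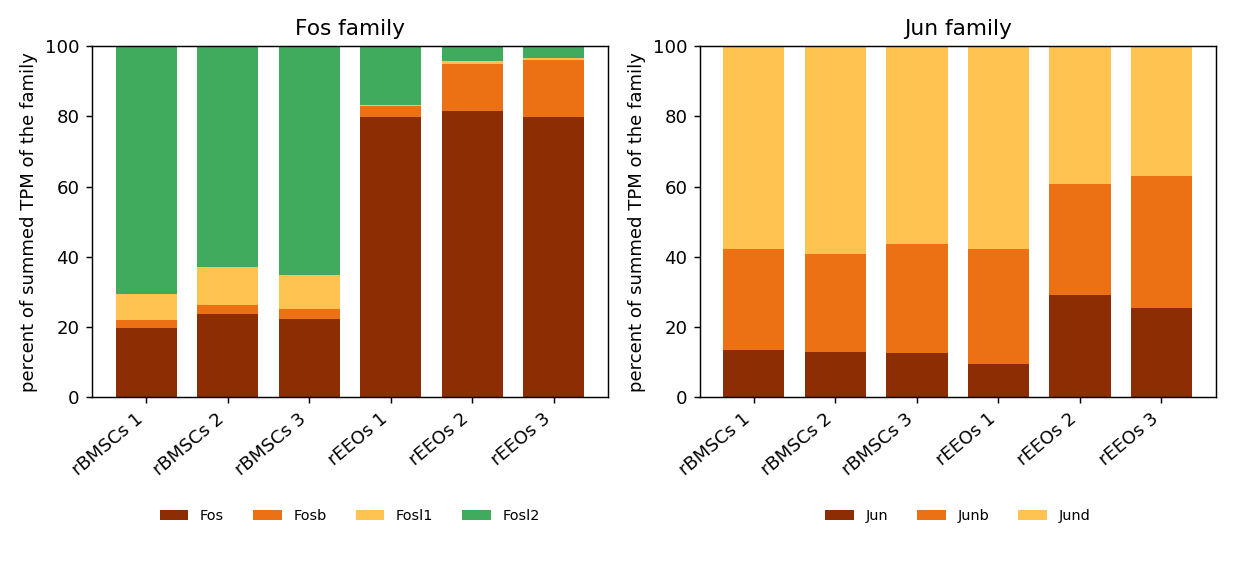
Share of each gene in the summed TPM of the Fos family (left) and of the Jun family (right), as a stacked bar for each library. Fosl2 fills 62.9% to 70.5% of the Fos bars of rBMSCs and Fos 79.8% to 81.4% of those of rEEOs, and Jund fills 57.7% of the Jun bar of rEEOs replicate 1 and 56.4% to 59.0% of those of rBMSCs.

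The summed TPM of the Fos family was 27.2, 23.6 and 28.9 in rBMSCs and 535, 989 and 1421 in rEEOs, and that of the Jun family was 175, 171 and 170 in rBMSCs and 716, 1196 and 1493 in rEEOs. The ratio of Fos family to Jun family TPM was thus 0.16, 0.14 and 0.17 in rBMSCs and 0.75, 0.83 and 0.95 in rEEOs. The mRNA of Fos proteins stayed below that of Jun proteins in every library, by a narrower margin in rEEOs. Over all 10 members the TPM summed to 331, 323 and 337 in rBMSCs, where Egr1 was the most abundant, and to 1434, 2895 and 3708 in rEEOs, where Fos was.

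The order of the levels was sharper in rBMSCs than in rEEOs. In rBMSCs it ran from Egr1 over Jund, Junb, Jun, Fosl2, Fos, Atf3, Fosl1 and Egr2 to Fosb, and only Fosl1 and Egr2 had overlapping ranges among the neighbours. In rEEOs the means ran from Fos over Jund, Atf3, Junb, Jun, Egr1, Fosb, Fosl2 and Fosl1 to Egr2, and the ranges of neighbours overlapped everywhere except between Fosl2, whose lowest library had 44.11 TPM, and Fosl1, whose highest had 10.58 TPM.

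Within rEEOs most members were lowest in the same library. Replicate 1 held the lowest CPM of 9 of the 10 members, all but Fosl2, as it did for 43.9% of all genes tested, and replicate 3 the highest of 8 of the 10, as for 23.1% of all genes. The mean of replicates 2 and 3 in CPM was 15.4 times replicate 1 for Fosb, 7.44 times for Jun and 7.09 times for Egr2, and 1.74 times for Jund. The size of these gaps depended on the measure. In TPM Egr1 was lowest in replicate 2, with 141.84, 114.54 and 235.6 in replicates 1, 2 and 3. Jund differed less in TPM (413.5, 469.23 and 551.8) than in CPM (437, 719 and 798). Fosl2 differed more in TPM (89.36, 44.11 and 48.6) than in CPM (45.4, 32.9 and 34.1). The SD of log2(CPM + 1) in rEEOs ran from 0.25 for Fosl2 to 2.48 for Atf3, and 9 of the 10 members were above the median of all genes. Without replicate 1 this held for 6, and the SD of Jun fell to 0.03 and that of Atf3 to 0.13, whereas Egr2 still had 1.00 and Egr1 0.67. The SD between replicates 2 and 3 was thus below the 0.16 of the median gene for Jun, Atf3, Jund and Fosl2, and above it for Egr2, Egr1, Fosl1 (0.56), Fosb (0.49), Junb (0.34) and Fos (0.29). Of the other immediate early genes tested, 22 of 27 also had their lowest rEEOs level in replicate 1.

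**Figure D4:**
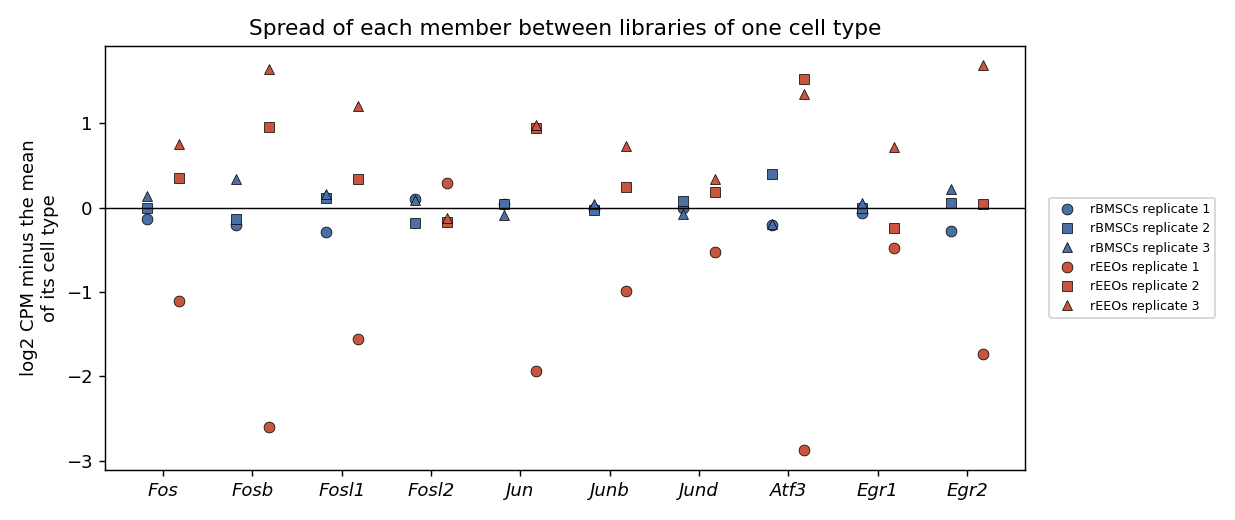
Log2 CPM of each member minus the mean of its cell type, for each library, with rBMSCs in blue and rEEOs in red. The circles of rEEOs replicate 1 are the lowest of the 3 for 9 of the 10 members, and all rBMSCs points stay near 0.

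Heat shock genes, which cells raise on handling and other stress, were read beside the members. Of 11 listed, 10 were held and tested. In rEEOs 3 were higher and 3 lower, or 30% each, against 33.3% and 30.2% of all genes tested. The other 4 did not pass the test. The log2 fold changes were 1.91, 0.68 and 0.43 for Hspa1a, Hspa8 and Hspe1, and -1.40, -1.20 and -0.66 for Hspb1, Bag3 and Dnajb1. Without TMM scaling Dnajb1 did not pass (-0.28), while Dnaja1, Hsp90aa1 and Hspd1 passed as higher (0.61, 0.53 and 0.94). The even split of this list thus depended on the scaling. Their summed TPM was 2171 to 2216 in rBMSCs and 2906, 2187 and 1908 in rEEOs replicates 1, 2 and 3, and none of the genes was at 0. Hspa8 held the largest part of it, with 1522.35, 1265.77 and 958.57 TPM in rEEOs replicates 1, 2 and 3. Hspa1a, an inducible heat shock protein, had 2.16 TPM in rBMSCs and 6.5 TPM in rEEOs on average (edgeR adjusted p = 0.015). In rEEOs replicates 1, 2 and 3 it had 4.25, 5.24 and 10 TPM, so it was lowest where the summed TPM was highest. The counts of Hspa1a and Hspa8 were fractional in all 6 libraries, so that their levels are uncertain. Of the 10 haematopoietic and macrophage markers listed, 8 were held, with a summed TPM of 5 to 6.66 in rBMSCs and 17.3 to 68.3 in rEEOs, with Laptm5 at 0 counts in rEEOs and Cd34, Aif1, Spi1 and Adgre1 at 0 counts in rBMSCs. Nearly all of that sum was Cd14, with 5.15, 6.08 and 4.72 TPM in rBMSCs and 67.27, 19.4 and 15.94 TPM in rEEOs, and the other 7 markers had at most 18 counts in any library. Of 6 endothelial markers, 4 were held, with a summed TPM of 0.41 to 0.54 in rBMSCs, where Cdh5 was at 0 counts, and of 0.01 to 0.24 in rEEOs. The part of other cells and of stress in the members' levels was not tested.

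Other immediate early genes, outside the AP-1 and Egr families, were 39 in the list, of which 27 were held and tested. In rEEOs 13 were higher and 6 lower, or 48.1% and 22.2% against 33.3% and 30.2% of all genes tested, and 8 did not pass the test, with a median log2 fold change of 1.19. Zfp36, which speeds the decay of cytokine mRNAs, had 23.9, 23.79 and 23.55 TPM in rBMSCs and 86.07, 166.32 and 349.34 TPM in rEEOs, a rise of 3.42 on the log2 scale (SE 0.61, edgeR adjusted p = 0.00301). Id1, an inhibitor of basic helix-loop-helix factors, rose with a log2 fold change of 3.54, and Ier5, an immediate early protein, with one of 3.30. Id3, a relative of Id1, went the other way, with 219 TPM in rBMSCs and 6.16 TPM in rEEOs on average, which is -4.88 on the log2 scale (edgeR adjusted p = 0.000123). Rhob, a small GTPase, and Klf2, a zinc finger factor, also fell, with log2 fold changes of -2.27 and -2.23.

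Other leucine zipper factors that can pair with AP-1 proteins, or belong to related families, were 31 in the list, with 21 held and 18 tested. Of these 6 were higher and 4 lower, or 33.3% and 22.2% against 33.3% and 30.2% of all genes tested. The number lower was 7 without rEEOs replicate 1 and 1 or 2 without any other library. The median log2 fold change was 0.00. Jdp2, which pairs with Jun proteins and represses AP-1 sites, had 103.95, 102.01 and 100.13 TPM in rBMSCs and 3.43, 1 and 2.65 TPM in rEEOs. All rEEOs libraries were far below, at -4.98 on the log2 scale (SE 0.27, edgeR adjusted p = 2.38e-05). The other genes that were lower were Atf7, Nfe2l1 and Creb1, with log2 fold changes of -1.04, -0.82 and -0.67, and none of these 3 passed the test with library size only, that is, without TMM scaling (-0.64, -0.42 and -0.28). Cebpb, a factor of acute phase and decidual genes, rose from 81.2 to 294 TPM on average, and the small Maf proteins Maff and Mafg rose by 2.07 and 0.69 on the log2 scale of CPM. In TPM, Mafg overlapped between the groups, with 33.8, 25.42 and 30.37 in rBMSCs and 32.81, 31.7 and 28.15 in rEEOs, and limma on TPM called 4 genes of the list higher and 6 lower.

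Nab2, a corepressor that binds Egr1 and is itself an Egr target, had 45.96, 44.37 and 42.01 TPM in rBMSCs and 6.79, 8.56 and 10.13 TPM in rEEOs. Nab2 was thus lower in every rEEOs library, by a log2 fold change of -2.08 (SE 0.28, edgeR adjusted p = 0.000866). Of the 5 Egr relatives and corepressors listed, 4 were held and 3 were tested. The share higher was 0% and that lower 66.7%, against 33.3% and 30.2% of all genes tested. Wt1, a relative of the Egr proteins, also fell, from 25 to 47 counts in rBMSCs to at most 2 in rEEOs. None was higher with edgeR, also at an unadjusted p below 0.05 and with limma, and DESeq2 and the edgeR fit without rEEOs replicate 1 called 1. Egr3, which did not pass, had 43, 49 and 61 counts in rBMSCs and 34, 161 and 328 in rEEOs (edgeR adjusted p = 0.083).

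SRF and its partners carry growth factor and actin signals to the Fos and Egr genes. SRF itself had 39.83, 40.92 and 43.62 TPM in rBMSCs and 23.33, 30.52 and 26.73 TPM in rEEOs, and Srf had a log2 fold change of -0.35 (SE 0.23, edgeR adjusted p = 0.228), or 0.02 with library size only. Of the 8 genes of the list, all tested, none was higher and 5 were lower. These are 0% and 62.5%, against 33.3% and 30.2% of all genes tested. None was higher at an unadjusted p below 0.05, with DESeq2 or with limma. Elk1, a ternary complex factor that ERK phosphorylates, fell from 27.3 to 7.11 TPM on average, which is -1.77 on the log2 scale (SE 0.17, edgeR adjusted p = 0.000201). Mkl1, the actin-regulated SRF coactivator, and Fhl2, a LIM protein that binds both SRF and AP-1, fell with log2 fold changes of -2.46 and -5.28. Myocd, the smooth muscle coactivator of SRF, had 342 to 475 counts in the rBMSCs libraries and 0 in all those of rEEOs, so it was at least 136-fold lower against 3 counts in each library. Elk3 fell by 1.06 on the log2 scale, and did not pass with library size only (-0.67, adjusted p = 0.113 with edgeR).

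Of 36 MAP kinase cascade genes, 32 were held and 31 tested, with a median log2 fold change of -0.27. In rEEOs 8 were higher and 12 lower, or 25.8% and 38.7% against 33.3% and 30.2% of all genes tested. Without TMM scaling, which moved the median of all genes by 0.38, 13 were higher and 5 lower, so the direction of this list depends on the scaling. Mapk3 (ERK1), which acts on Fos and the Elk proteins, fell by 0.64 on the log2 scale (edgeR adjusted p = 0.00377), but only by 0.26 with library size only (edgeR adjusted p = 0.082). Mapk8 (JNK1), which phosphorylates Jun, was at -0.22 (edgeR adjusted p = 0.414), or 0.17 with library size only. Mapk14 (p38 alpha) was at 0.14 (edgeR adjusted p = 0.437), or 0.52 with library size only, where it passed the test (edgeR adjusted p = 0.0281). Mapk13 (p38 delta) had 116.08, 131.02 and 76.7 TPM in rEEOs while all rBMSCs libraries had 0 counts of it, so it was at least 729-fold higher against the same floor, and the RSK kinases Rps6ka1 and Rps6ka2, which ERK activates, had 52.4 and 5.04 TPM in rEEOs against 1.19 and 0.04 TPM in rBMSCs on average, the latter from 2 counts in each library. Mapk7 (ERK5) and Rps6ka5 (MSK1) fell, with log2 fold changes of -1.52 and -1.48, and the counts of Mapk7 were fractional, which leaves its level uncertain.

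The feedback inhibitors of MAP kinases, DUSP phosphatases and Sprouty or Spred proteins, numbered 18 in the list, of which 10 were held and tested. Dusp4, Dusp5, Dusp6, Spry1 and Spry2 were among those not held, so the counts below do not cover them. Of the 10 tested none was higher and 6 were lower, or 0% and 60% against 33.3% and 30.2% of all genes tested. The number higher was 1 at an unadjusted p below 0.05, 1 with DESeq2, 0 with limma, 2 when rEEOs replicate 1 was left out and 1 when rEEOs replicate 2 was. Dusp14 had 66.5, 69.08 and 67.41 TPM in rBMSCs and at most 2.07 TPM in rEEOs, a difference of -5.22 on the log2 scale (edgeR adjusted p = 1.43e-05). Its counts were fractional, so reads shared with a similar gene leave its level uncertain. Spry4 and Dusp8 also fell, with log2 fold changes of -2.54 and -1.73. Dusp1, an immediate early phosphatase, did not pass, with 38.32, 38.4 and 32.46 TPM in rBMSCs and 28.74, 32.93 and 128.83 TPM in rEEOs (edgeR adjusted p = 0.166).

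Of 23 genes known from textbooks as AP-1 targets, 20 were held and 16 tested, and 7 were higher and 5 lower, or 43.8% and 31.2%, against 33.3% and 30.2% of all genes tested. The metallothioneins Mt1 and Mt2A, which bind zinc and copper, had 7191 and 9187 TPM in rEEOs on average, with at most 1 count of Mt1 and 4 of Mt2A in any rBMSCs library. The counts of Mt2A in rEEOs were fractional, so its level is uncertain too. Cxcl1, a neutrophil chemokine, had 300.96, 177.04 and 497.11 TPM in rEEOs and 0.863 TPM on average in rBMSCs, or 8.83 on the log2 scale (SE 0.60, edgeR adjusted p = 5.31e-05). Tgfb1 and Timp1, a growth factor and a metalloprotease inhibitor, fell with log2 fold changes of -3.83 and -1.24. The interleukin Il6 and the hyaluronan receptor Cd44 were also lower, at -5.18 and -0.86, and Cd44 did not pass with library size only (-0.46). Il6 had few reads, with 28, 35 and 24 counts in rBMSCs and at most 2 in rEEOs.

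**Figure D5:**
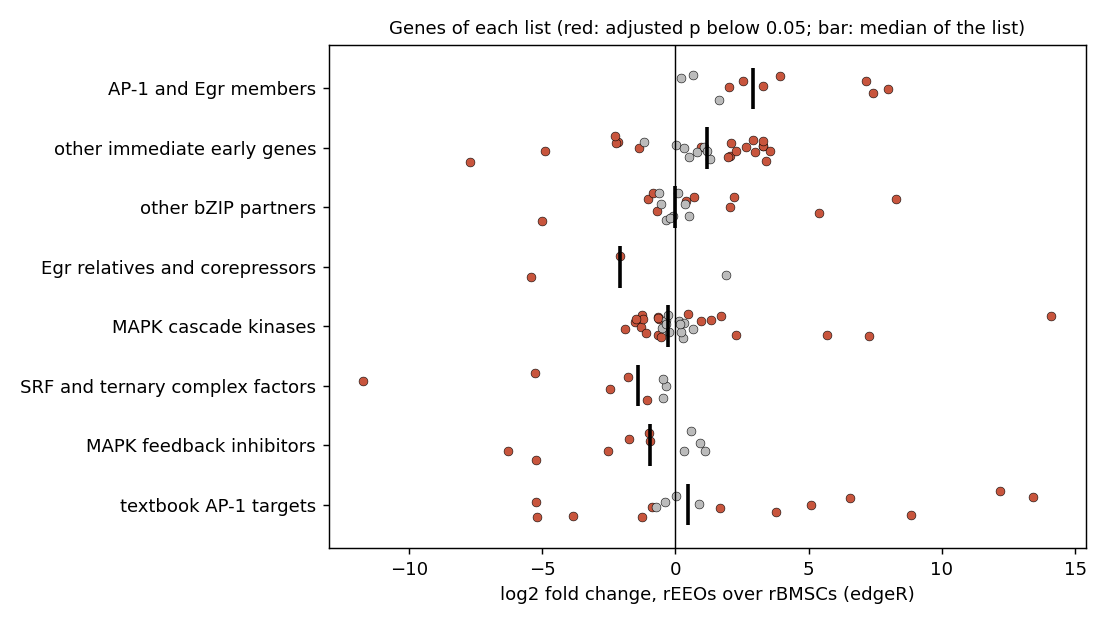
Log2 fold changes from edgeR of the genes tested among the members and in 7 pathway lists, with red points for an adjusted p below 0.05 and a black bar at the median of a list. The median of the AP-1 and Egr members is 2.93 and that of the SRF list -1.42; the outermost points belong to genes with no count or few counts in a cell type, whose fitted values are not bounds, and the medians of these 8 lists were the same with genes at 0 counts set to their bound (marker and heat shock lists are not drawn).

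By RefSeq gene ID, 7 of the 10 members, all but Fos, Jun and Atf3, were matched to a promoter of the GRCr8 assembly, of which the 250 bases before the start were searched on both strands. The motifs were the AP-1 site TGACTCA, the cAMP response element TGACGTCA, the Egr site GCGTGGGCG and the CArG box that SRF binds. They occur in 4.05%, 1.59%, 0.478% and 1.5% of 33469 promoters of the same length. Jund held a TGACGTCA 221 bases before its start (-221) and a GCGTGGGCG at -76, Egr1 held CArG boxes at -105 and -83, and Egr2 held a CArG box at -83. The other 4 promoters held none of these letters in the window. The promoter of Jund is shown as that of a member that rose in every rEEOs library and that of Egr2 as that of a member that did not pass, each 5′ to 3′ on the strand of the gene with the matches in capitals. A match describes the letters only.
Jund promoter, GRCr8 chr16:18769772-18770021, minus strand: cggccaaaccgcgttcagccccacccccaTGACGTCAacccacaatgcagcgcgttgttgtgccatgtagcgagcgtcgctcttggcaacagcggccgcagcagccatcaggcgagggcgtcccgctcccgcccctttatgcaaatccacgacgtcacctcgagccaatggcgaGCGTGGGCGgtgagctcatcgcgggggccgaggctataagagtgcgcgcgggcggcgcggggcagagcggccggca
Egr2 promoter, GRCr8 chr20:21054442-21054691, minus strand: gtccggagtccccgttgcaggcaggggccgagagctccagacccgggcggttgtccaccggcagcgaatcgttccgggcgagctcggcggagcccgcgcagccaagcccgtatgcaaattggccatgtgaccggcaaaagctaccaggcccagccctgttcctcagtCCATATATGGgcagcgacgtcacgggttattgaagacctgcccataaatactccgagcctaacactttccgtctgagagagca

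The genes whose pattern was most like that of each member were found among the 10607 genes tested, by the root mean square difference of log2(CPM + 1) centred over the 6 libraries. Fosb and Atf3 were each other's nearest gene, at 0.44, followed for both by Timd2. For Fos the nearest were Prr15 and Serpinb1a at 0.27 and the chemokine Ccl20 at 0.32. For Jun they were Gpc3 at 0.11, Gsta5 at 0.12 and Tnfaip3 at 0.23, and for Junb they were Akr1c19 at 0.09, LOC302022 at 0.13 and Arhgef37 at 0.14. The nearest gene lay at 0.07 for Jund (Adssl1) and for Fosl2 (Cd164), at 0.13 for Egr1 (Echdc3), at 0.12 for Fosl1 (LOC100912578) and at 0.24 for Egr2 (Bhlhe41). Among the 3 nearest genes, those of Fosl1 included the immediate early gene Csrnp1 at 0.18 and those of Egr2 included Nr4a2 at 0.30.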

How the data were processed

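Total RNA from 3 rEEOs and 3 rBMSCs samples was sequenced by the authors as single-end reads on a BGISEQ platform. Per the study's methods and the submitters' processing notes, reads were trimmed with Trim Galore, aligned with Bowtie2 2.2.5 (the notes name Rnor_6.0) and quantified with RSEM. In the deposited table every gene has an expected count per library, left unnormalized and fractional in 7.3% to 8.4% of values, beside its TPM and FPKM from the authors; FPKM served as an alternative for family shares. The copy held has 13728 genes, which hold between 81.3% and 82.7% of the full TPM sum of a library, and genes outside it were not analysed here. Averages over replicates in the table were not used.

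Expected counts were rounded, and genes reaching 10 counts in 3 or more libraries were tested with edgeR 4.0.16 (TMM, estimateDisp, glmQLFit, glmQLFTest) in R 4.3.3, on a design of cell type alone, with p-values adjusted by Benjamini-Hochberg over all 10607 genes. TMM factors lay between 0.866 and 1.196. The standard error is the size of the log2 fold change divided by the square root of F. CPM was computed by edgeR after TMM scaling. A fold against a cell type with no count was computed against 3 counts in each library, between 0.181 and 0.262 CPM, and covers counting error only. Replicate libraries differed by more than sampling noise. The chi-square per degree of freedom was 3.09 to 9.79 for pairs of rBMSCs libraries and 57.2 to 236 for pairs of rEEOs libraries. Same-numbered libraries were checked for pairing (correlations of deviations 0.17, 0.19 and -0.17), and the numbers were not taken as pairs. Alternatives were DESeq2 1.42.0, limma 3.58.1 on log2(TPM + 1) or log2(TPM + 0.1), other scalings and filters, a replicate block and leaving out each library. The test was checked on simulated data. The members and gene lists were chosen with earlier results of these data known. Every member was named, and from each list up to 3 genes with the largest and 3 with the smallest log2 fold change among those with an adjusted p below 0.05, no overlap between groups in CPM and a mean of 10 CPM or more where higher, with Srf, Elk1, Mapk3, Mapk8 and Mapk14. Some genes that this rule names are not reported here. Creb1, Wt1, Egr3, Elk3, Dusp1, Il6, Cd44 and LOC100911428 fell outside that rule and were named after their values were seen. The same holds for Hspa1a, Hspa8, Hspe1, Hspb1, Bag3, Dnajb1, Dnaja1, Hsp90aa1, Hspd1, Cd14, Vim and Foxa2. Nearest genes were the 3 with the smallest difference in pattern. Python 3.11.15, pandas 2.3.3, numpy 2.4.6 and matplotlib 3.10.9 were used.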

Additional observations from a re-analysis of the deposited data

How the results depend on the processing

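The calls of Fos, Fosb, Fosl2, Jun, Junb, Jund and Atf3 at an adjusted p below 0.05 were kept under all 14 alternatives run, and leaving out each library put 6 to 7 members above a log2 fold change of 2. Fosl1 also passed with DESeq2 (log2 fold change 1.63), with no TMM scaling (2.00) and when rEEOs replicate 1 was left out (range 0.93 to 2.13 over the libraries), and the filter of 50 counts did not test it. Egr1 passed with no TMM scaling (1.04) and when rEEOs replicate 1 was left out (range 0.22 to 0.91). Egr2 reversed to -0.26 and -0.54 with limma on log2(TPM + 1) and log2(TPM + 0.1), to -0.30 with the replicate block, and ranged from -0.98 to 0.74 with each library left out. The log2 fold changes of Fosb and Atf3 were smallest with limma on log2(TPM + 1), at 5.63 and 5.69, and were 6.75 and 5.99 on log2(TPM + 0.1). The replicate block changed no other call of a member.

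Library size only moved the median log2 fold change of all genes by 0.38, and the share of calls that were higher was 68.8% against 52.5%; limma on log2(TPM + 1) moved the median by -0.27. With library size only, 1 bZIP partner was lower, 1 Egr relative was higher, 13 MAP kinase genes were higher and 5 lower, and 2 feedback inhibitors were higher. DESeq2 called 1 Egr relative and 1 feedback inhibitor higher. The filter of 50 counts and both limma fits each left 1 Egr relative lower. With each library left out, 1 to 7 bZIP partners were lower, 0 to 1 Egr relatives and 0 to 2 feedback inhibitors were higher, and 7 bZIP partners came without rEEOs replicate 1. The cause of these changes was not tested. The Jun family shares in rEEOs depended on the library left out: Jund held 38.1% to 48.5% and Junb 32.2% to 35.3%. At 18 to 25 reads of Fosb in rBMSCs, depth limits how well its fold change is known.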
